A study of Rattus norvegicus with 9 samples.

Results

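The miRNAs followed here through exosomes of rat macrophages are often used as reference genes for small RNA of blood and vesicles: rno-miR-423-3p, rno-miR-191a-5p, rno-miR-103-3p, rno-miR-16-5p and rno-miR-24-3p. They were picked by name and make up 5 of the 201 miRNAs in the read-count table of the series. Exosomes are small vesicles that cells shed into their medium, and their RNA was sequenced on a BGISEQ-500 instrument in 9 libraries. The cells were primary peritoneal macrophages washed from the abdominal cavity of untreated rat. The 3 Control libraries came from cells kept in 0.1% DMSO for 24 h. The 3 LPS libraries came from cells given bacterial lipopolysaccharide (LPS), an activator of macrophages, at 100 ng/ml for 6 h. The 3 LPS+AS-IV libraries came from cells pretreated for 24 h with 150 µM astragaloside IV (AS-IV), a plant saponin, and then given LPS at the same dose and time. Both agents were made up in DMSO, but a final DMSO concentration is listed only for Control, so vehicle and treatment cannot be told apart in comparisons with Control. Whether LPS and LPS+AS-IV cells had the same DMSO for the same time is not listed either, so the same limit holds between these groups. The labels do not say whether replicates were separate animals or cultures, so each p-value measures the spread between these libraries, which may be technical.

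A miRNA is cut from a hairpin precursor, and bases 2 to 8 from its 5′ end, the seed, pair with target mRNAs. The other arm of the hairpin is usually degraded, and the 3′ end of the kept arm can be trimmed or extended by a base. A reference gene for qPCR or sequencing is wanted at a high level that moves little between samples, so that other miRNAs can be expressed per unit of it. In medium, levels of a vesicle miRNA cannot separate fewer vesicles from less of the miRNA in each, and in bulk RNA fewer cells of a type cannot be told apart from less RNA per cell.

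The mature sequences, from RefSeq on build GRCr8, are printed to show which seeds the reference miRNAs carry, with the seed in capitals. An entry was matched for 4 of the 5 members.
miR-191a-5p: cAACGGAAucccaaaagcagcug
miR-103-3p: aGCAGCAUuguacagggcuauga
miR-16-5p: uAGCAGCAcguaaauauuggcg
miR-24-3p: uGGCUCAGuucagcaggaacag
For miR-423-3p the most abundant tag (distinct read sequence) of the deposited files stands in, and in what follows it is counted as its exact mature form.
miR-423-3p: agctcggtctgaggcccctcagt
No seed was shared between these members. Outside them, miR-107-3p has the seed of miR-103-3p, and miR-15b-5p has that of miR-16-5p, as do miR-195-5p, miR-497-5p and miR-322-5p. One relative of each is printed for comparison.
miR-107-3p: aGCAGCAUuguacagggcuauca
miR-15b-5p: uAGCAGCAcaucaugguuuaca
miR-107-3p differed from miR-103-3p at 1 base, near the 3′ end. No tag in any library held the whole miR-107-3p sequence, and 39 reads of 1 shorter tag named miR-103-3p lay within both.

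Each member comes from its own place in the genome, mostly inside a protein-coding gene. Mature miR-191a-5p lies at chr8:118142641-118142663 on the plus strand within Dalrd3, beside Mir425. Mature miR-103-3p lies at chr3:138963278-138963300 on the plus strand within Pank2, a gene of coenzyme A synthesis, and its other hairpin, Mir103a1, spans chr10:20748474-20748559 on the plus strand. Mature miR-16-5p lies at chr2:155555343-155555364 on the plus strand within Smc4, a condensin subunit, beside Mir15b. Mature miR-24-3p has 2 copies, at chr17:1818672-1818693 on the minus strand within Aopep, beside Mir23b and Mir27b, and at chr19:40859481-40859502 on the minus strand, beside Mir23a and Mir27a. The Mir423 hairpin spans chr10:62412272-62412350 on the minus strand within Nsrp1. All these positions are GRCr8, and whether they fall in exons or introns was not examined.

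The libraries were shallow in miRNA and uneven. Assigned reads per library ran from 3484099 to 9527483, but the miRNA table held between 15426 reads (LPS+AS-IV 1) and 546599 reads (LPS+AS-IV 3). The 5 members together held 15.5, 16.0 and 17.6% of the table's reads in the Control libraries, 22.0, 23.9 and 16.7% for LPS and 21.8, 13.2 and 18.9% for LPS+AS-IV. Group means were 16.4% ± 1.12 (SD, n = 3), 20.9% ± 3.72 and 18.0% ± 4.35, and the libraries of the 3 groups overlapped. Of 6 listed myeloid miRNAs, 5 had a row in the table, and their summed share ran from 2.12 to 4.94% for Control, 1.10 to 3.76% for LPS and 0.718 to 7.19% for LPS+AS-IV. Most of it was miR-146a-5p, an LPS-responsive miRNA, whereas miR-223-3p, a defining granulocyte and monocyte miRNA, was listed at 0 in 3 libraries. Platelet miRNAs summed to 0.881 to 1.47% for Control, 0.369 to 0.575% for LPS and 0.415 to 1.37% for LPS+AS-IV, and endothelial miRNAs to 0.745 to 1.39%, 0.195 to 0.472% and 0.415 to 1.23% in the same order. LPS was thus below Control without overlap in both sums, which share miR-126a-3p. Among single tested miRNAs, 19.1% had CPM without overlap between LPS and Control. The part of these cells in the member levels was not tested. Over the 9 libraries the other lists ran from 9.54 to 19.3% for lymphocytes (with miR-181a-5p, which many cells hold, the most abundant), 0 to 0.137% for mesothelium and epithelium, 0 to 0.323% for fibroblasts and smooth muscle, and 0.143 to 1.02% for liver and serum.

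The most abundant member was miR-423-3p, a miRNA often detected in plasma. It had 3345, 2741 and 6641 reads in the Control libraries, 3407, 9447 and 5251 for LPS and 1930, 4320 and 49876 for LPS+AS-IV. In CPM, which are reads put on an equal footing between libraries by the TMM factors of edgeR, the Control libraries stood at 72218, 81868 and 89249. The LPS libraries stood at 122590, 161731 and 84193 CPM, and the LPS+AS-IV libraries at 139196, 65855 and 99637 CPM. LPS 2 was the highest of the 9 libraries and LPS+AS-IV 2 the lowest, and the groups overlapped. Group means were 81112 ± 8541 (SD, n = 3), 122838 ± 38770 and 101563 ± 36709 CPM, which made it the second most abundant miRNA of the table.

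For miR-191a-5p, a broadly expressed miRNA and a common calibrator, 1722, 1008 and 4026 reads were counted for Control, 1205, 3150 and 3087 for LPS and 796, 2825 and 25262 for LPS+AS-IV. Its levels were 37177, 30107 and 54106 CPM for Control, 43358, 53927 and 49496 CPM for LPS and 57410, 43065 and 50466 CPM for LPS+AS-IV. Control 2 was the lowest library, and the groups overlapped, with means of 40463 ± 12332 (SD, n = 3), 48927 ± 5308 and 50313 ± 7174 CPM. It was sixth in abundance.

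The next, miR-24-3p, is made from 2 miR-23/27/24 clusters. It had 878, 523 and 1486 reads for Control, 466, 1819 and 725 for LPS and 273, 784 and 16025 for LPS+AS-IV. That was 18956, 15621 and 19970 CPM for Control, 16768, 31141 and 11624 CPM for LPS and 19689, 11951 and 32013 CPM for LPS+AS-IV. The Control libraries lay close together, and each treated group held both a library above them all and one below them all. Means were 18182 ± 2276 (SD, n = 3), 19844 ± 10116 and 21218 ± 10118 CPM.

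For miR-16-5p, a miRNA of most tissues that is plentiful in red cells and acts on cell-cycle genes, the reads were 508, 635 and 736 for Control, 366, 1131 and 1021 for LPS and 184, 1176 and 10857 for LPS+AS-IV. Its CPM were 10968, 18966 and 9891 for Control, 13169, 19363 and 16370 for LPS and 13271, 17927 and 21689 for LPS+AS-IV. The groups overlapped, with means of 13275 ± 4958 (SD, n = 3), 16301 ± 3097 and 17629 ± 4217 CPM. Red-cell miRNAs were present beside it. The 3 of 4 listed erythroid miRNAs in the table, led by miR-451-5p, summed to 4.07 to 4.79% of reads for Control, 2.72 to 3.97% for LPS and 3.04 to 3.54% for LPS+AS-IV, with miR-144-3p at 0 in 7 libraries. The Control libraries were thus above both other groups in this sum, while miR-16-5p had its lowest mean there. miR-451-5p alone overlapped, with Control 2 at 27449 CPM, LPS 1 at 33391 and LPS+AS-IV 3 at 38661. miR-486 had 287, 336 and 610 reads for Control, 83, 8 and 0 for LPS and 130, 132 and 0 for LPS+AS-IV. Among single tested miRNAs, CPM did not overlap for 19.1% between LPS and Control and 10.6% between LPS+AS-IV and Control. The part of red-cell RNA in the miR-16-5p level was not tested.

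The least abundant, miR-103-3p, sits in Pank2 and is linked to lipid and insulin metabolism. Only 74, 37 and 427 reads were counted for Control, 168, 158 and 212 for LPS and 175, 0 and 1238 for LPS+AS-IV. Levels were 1598, 1105 and 5738 CPM for Control, 6045, 2705 and 3399 CPM for LPS and 12621, 0 and 2473 CPM for LPS+AS-IV. LPS+AS-IV thus held both the highest and the lowest library, and its mean of 5032 ± 6688 CPM (SD, n = 3) had an SD larger than itself. The other means were 2814 ± 2545 CPM in Control and 4050 ± 1762 CPM in LPS. The 0 among 68845 reads of LPS+AS-IV 2 allows up to 3 reads, or 45.7 CPM, which is 0.00436% of the reads of that library, and covers counting error only since PCR reads without molecular identifiers are not independent molecules.

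**Figure D1:**
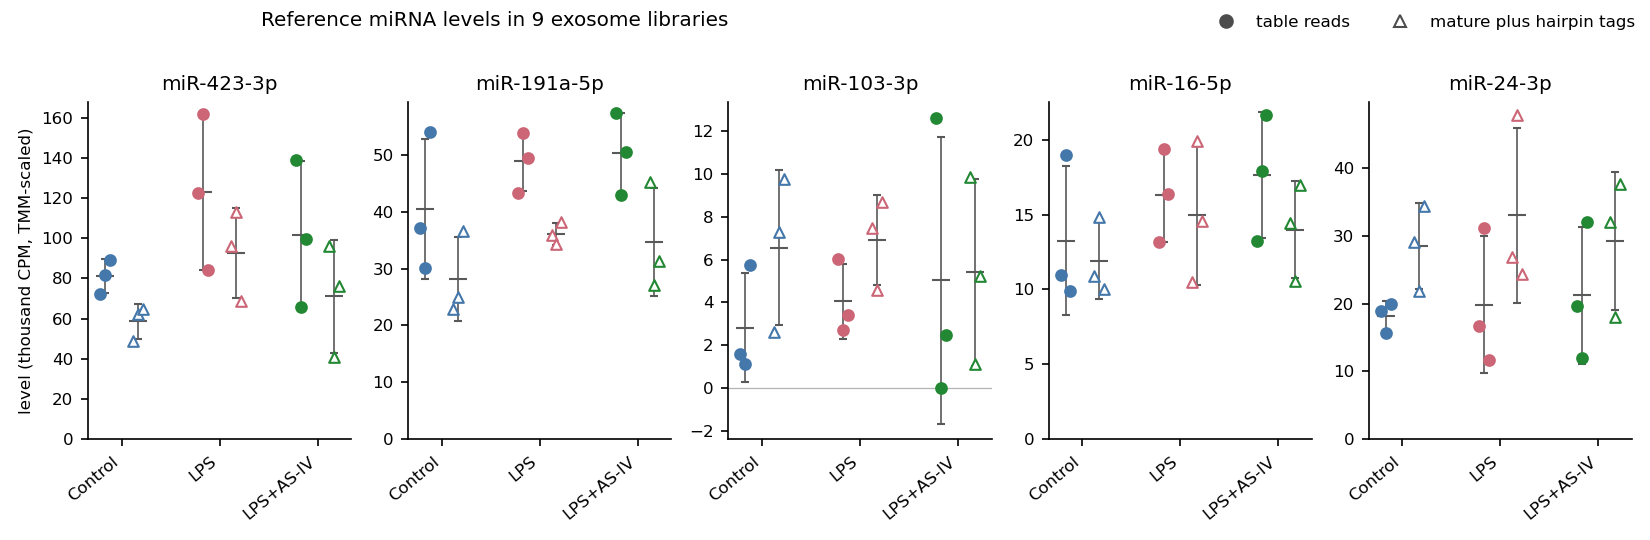
Level of each reference miRNA by group, in units of 1000 CPM, from the table's reads (filled circles) and from mature plus hairpin tags (open triangles). Each point is 1 library and bars show mean ± SD of 3 libraries. In table reads the groups overlap in each panel and miR-103-3p alone has a library at 0, and with hairpin tags the LPS libraries of miR-423-3p lie above those of Control.

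By mean level the order was miR-423-3p, miR-191a-5p, miR-24-3p, miR-16-5p and miR-103-3p. Levels of different miRNAs also carry differences in ligation and amplification, so this is an order of reads. Only the first step of it was clear of the spread. The lowest library of miR-423-3p, at 65855 CPM, was above the highest of miR-191a-5p, at 57410 CPM, and the median ratio within libraries was 1.97. miR-191a-5p was above miR-24-3p in 9 of 9 libraries, and miR-16-5p above miR-103-3p in 9 of 9, but their ranges over libraries overlapped. miR-24-3p and miR-16-5p were not ordered beyond their spread, since miR-24-3p was the higher in 6 of 9 libraries.

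Steadiness was measured as the SD of log2(CPM + 1) over the 9 libraries. It was 0.30 for miR-191a-5p, 0.39 for miR-16-5p, 0.44 for miR-423-3p, 0.52 for miR-24-3p and 4.05 for miR-103-3p. Among the 94 miRNAs with enough reads to be tested the median was 3.54, because many were at 0 in some library. Among the 34 with at least 10 reads in each library, which leaves out miR-103-3p, the median was 0.65. Of the 94, 2 had a lower SD than miR-191a-5p: let-7i-5p at 0.12 and the red-cell miRNA miR-451-5p at 0.24. There were 7 below miR-16-5p, 11 below miR-423-3p, 13 below miR-24-3p and 51 below miR-103-3p. Steadiness here is among miRNA reads. As shares of all assigned reads, whose miRNA part differed between libraries, the SDs were 1.63 for miR-191a-5p, 1.80 for miR-16-5p, 1.60 for miR-423-3p, 1.90 for miR-24-3p and 2.09 for miR-103-3p. Without LPS+AS-IV 2, the SD of miR-103-3p was 1.13 over 8 libraries, with an 11.4-fold range, and 32 of the tested miRNAs were below it. Leaving out 1 library at a time gave 0.21 to 0.32 for miR-191a-5p, 0.34 to 0.42 for miR-16-5p, 0.37 to 0.47 for miR-423-3p and 0.46 to 0.55 for miR-24-3p.

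**Figure D2:**
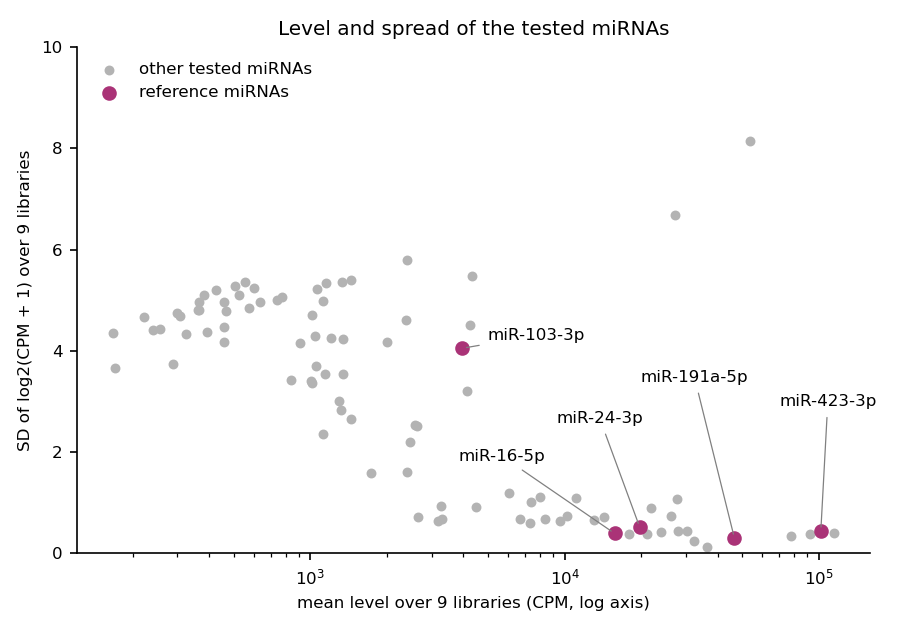
Mean level (CPM, log axis) and SD of log2(CPM + 1) over 9 libraries for the 94 tested miRNAs, with the reference miRNAs in purple. Of these, 4 lie at the high, steady end with SDs from 0.30 to 0.52, and miR-103-3p at 4.05 lies among miRNAs that were at 0 in some library.

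The spread did not have the same shape for each member within the groups. In Control the coefficient of variation was 10.5% for miR-423-3p and 12.5% for miR-24-3p, against 30.5% for miR-191a-5p and 37.4% for miR-16-5p. In LPS it was the other way round, at 31.6% for miR-423-3p and 51.0% for miR-24-3p against 10.9% for miR-191a-5p and 19.0% for miR-16-5p. LPS+AS-IV resembled LPS, with 36.1, 47.7, 14.3 and 23.9% in the same order. These are SDs of 3 libraries each, and differences between them were not tested.

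Reference miRNAs are used as ratios, so the 10 ratios between members were compared across libraries. The SD of the log2 ratio over the 9 libraries averaged 1.51 over the 10 pairs and 0.49 over the 6 pairs without miR-103-3p. Within the 6, the steadiest was miR-423-3p to miR-191a-5p, at an SD of 0.37. It stood at 1.94, 2.72 and 1.65 for Control, 2.83, 2.999 and 1.70 for LPS and 2.42, 1.53 and 1.97 for LPS+AS-IV. The least steady was miR-16-5p to miR-24-3p, at 0.59, which went from 0.495 in Control 3 to 1.5 in LPS+AS-IV 2. Pairs with miR-103-3p had SDs from 2.87 to 3.28, counting 0.5 reads in place of its 0, and without LPS+AS-IV 2 the mean over the 10 pairs was 0.73. No ratio had non-overlapping libraries in any of the 3 comparisons of groups. Within LPS the 6 pairs averaged 0.43, within Control 0.50 and within LPS+AS-IV 0.59.

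**Figure D3:**
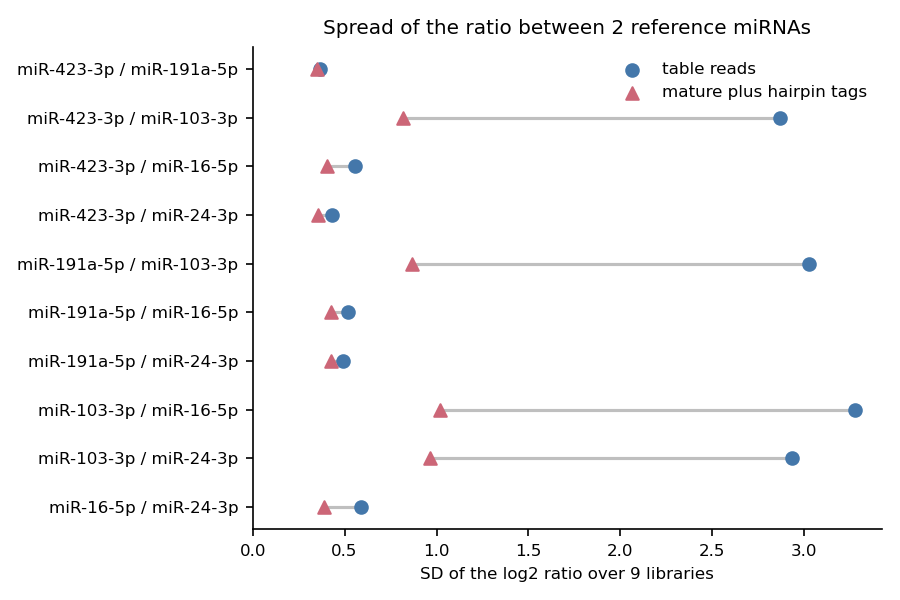
SD of the log2 ratio between 2 reference miRNAs over 9 libraries, for the 10 pairs, from table reads (circles) and from mature plus hairpin tags (triangles). The 4 pairs with miR-103-3p sit from 2.87 to 3.28 in the table and from 0.82 to 1.02 with hairpin tags, and the other 6 sit at or below 0.59 in both.

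The miRNAs whose level kept the steadiest ratio to each member were found among the 34 with at least 10 reads in each library. For miR-423-3p it was miR-92a-3p, with a log2 ratio SD of 0.24 over the 9 libraries, ahead of miR-191a-5p at 0.37 and miR-24-3p at 0.43. For miR-191a-5p it was let-7g-5p, with 0.29, closely followed by miR-92a-3p at 0.29 and let-7i-5p at 0.32. For miR-16-5p it was let-7b-5p, with 0.37, then let-7i-5p at 0.38 and miR-150-5p at 0.40. For miR-24-3p it was miR-423-3p, with 0.43, then miR-181a-5p at 0.43 and let-7b-5p at 0.45. For miR-103-3p the nearest, miR-378a-3p, had an SD of 2.55, ahead of miR-320-3p at 2.70 and miR-423-3p at 2.87. Ranked by the mean SD of the ratios to all others of the 34, let-7i-5p came first, miR-191a-5p second at 0.72, miR-16-5p eighth at 0.79, miR-423-3p eleventh at 0.80 and miR-24-3p fifteenth at 0.87.

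Treatment was compared with edgeR's quasi-likelihood test, fitted over the 9 libraries, with p-values adjusted by Benjamini-Hochberg over the 94 tested miRNAs. Between LPS and Control, 1.06% of tested miRNAs passed an adjusted p of 0.05, and 0 of 5 members did. The largest fitted difference of a steady member was that of miR-423-3p, higher in LPS by 0.60 on the log2 scale (SE 0.31) at an adjusted p of 0.662 (0.0705 before adjustment). Its LPS 3 library, at 84193 CPM, lay within the Control range. The log2 difference was 0.27 (SE 0.30) for miR-191a-5p, 0.30 (SE 0.43) for miR-16-5p, 0.13 (SE 0.46) for miR-24-3p and 0.52 (SE 1.49) for miR-103-3p, with the same adjusted p of 0.964 for each. No member had non-overlapping groups, where 19.1% of tested miRNAs did. The 5 fitted values were above 0 with a median of 0.30, beside a median of -0.04 over all tested. With each scaled on the other 4 members, miR-191a-5p, miR-16-5p and miR-24-3p were below 0. Such values are relative to the other members, so they cannot show whether the members moved together.

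Between LPS+AS-IV and LPS, 0% of tested miRNAs passed, and 0 of 5 members. The log2 differences were -0.27 (SE 0.30) for miR-423-3p, 0.04 (SE 0.30) for miR-191a-5p, 0.11 (SE 0.43) for miR-16-5p, 0.10 (SE 0.46) for miR-24-3p and 0.31 (SE 1.48) for miR-103-3p. Of the 94 tested in edgeR, 3 had an unadjusted p under 0.05, and of the 87 with an adjusted p in DESeq2, 1 passed, none of them a member. Between LPS+AS-IV and Control, 2.13% of tested miRNAs passed, and again 0 of 5 members. The log2 differences were 0.32 (SE 0.30) for miR-423-3p, 0.31 (SE 0.30) for miR-191a-5p, 0.41 (SE 0.43) for miR-16-5p, 0.22 (SE 0.46) for miR-24-3p and 0.83 (SE 1.49) for miR-103-3p. Libraries that did not overlap were found for 7.45 and 10.6% of tested miRNAs in these 2 comparisons, and for none of the members. The median over the members was 0.10 and 0.32, beside 0.19 and 0.21 over all tested. The 3 comparisons share groups and are not independent.

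**Figure D4:**
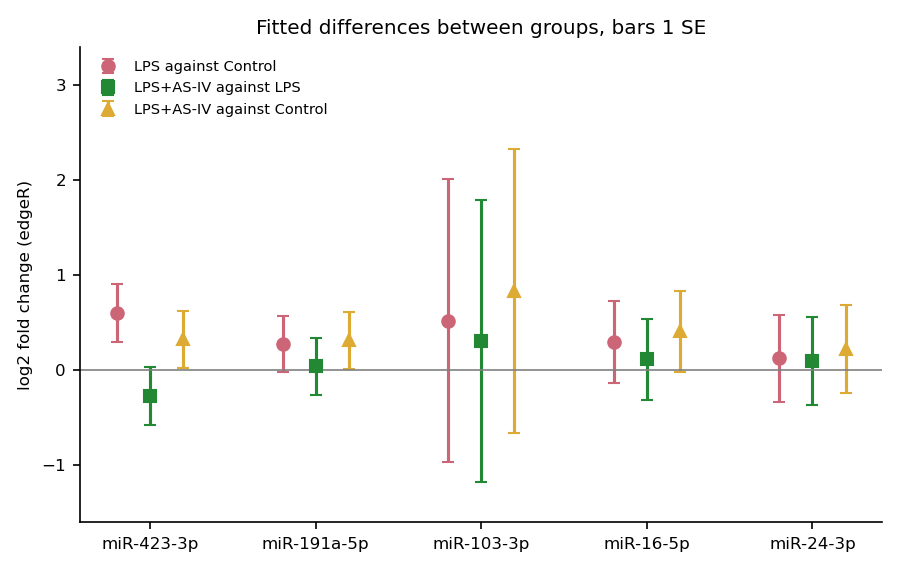
Fitted log2 fold change of each reference miRNA in the 3 comparisons, with bars of 1 SE from edgeR. For the 4 members other than miR-103-3p the SE is 0.30 to 0.46, and for miR-103-3p it is 1.48 to 1.49, with no value past the adjusted threshold.

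A setting chosen after seeing the data left out LPS+AS-IV 1 and LPS+AS-IV 3, the libraries with the fewest and the most miRNA reads. The lone LPS+AS-IV library was then assumed to vary like the other groups, and more miRNAs, 153, were tested. miR-423-3p passed edgeR's test between LPS and Control, higher by 0.67 (SE 0.19, adjusted p 0.0281). It also passed between the lone LPS+AS-IV library and LPS, where it fell by 1.20 (adjusted p 0.00237). miR-103-3p, with 0 reads in that lone library, passed against LPS (adjusted p 0.00725) and against Control (adjusted p 0.0155). The absence of calls for these members therefore does not show that their levels were equal.

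The table counted only part of the reads of each member. In the deposited tag files, a tag is named either for the mature miRNA or for its hairpin with the same arm, and for the members the table equalled the mature tags in 9 of 9 libraries. With the reads of all libraries pooled, tags named for the hairpin held 23.8% of the mature plus hairpin reads of miR-423-3p and 13.4% of those of miR-191a-5p. The pooled share was 71.2% for miR-103-3p, 30.4% for miR-16-5p and 56.8% for miR-24-3p. LPS+AS-IV 3, with the most reads, weighs most in these. In single libraries the share ran from 17.4 to 30.8% for miR-423-3p, 18.45 to 49.45% for miR-16-5p and 8.19 (LPS+AS-IV 3) to 30.3% for miR-191a-5p, whose mean over libraries was 19.8%. For miR-24-3p the hairpin share was 63.7, 58.2 and 66.0% for Control, 61.2, 63.5 and 73.1% for LPS and 66.2, 68.0 and 51.5% for LPS+AS-IV, so its larger part was outside the table in each library. For miR-103-3p it was 66.2, 91.1 and 65.5% for Control, 49.9, 66.9 and 77.9% for LPS and 29.4, 100 and 73.1% for LPS+AS-IV. The library at 0 in the table, LPS+AS-IV 2, had 153 hairpin-named reads of miR-103-3p.

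The tags behind these shares are printed next for the 3 members where they matter most, with added or changed 3′ bases in capitals and in the T of the files.
miR-24-3p with 1 added T: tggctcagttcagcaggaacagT
miR-24-3p exact: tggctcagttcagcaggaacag
miR-24-3p shorter by 1 base: tggctcagttcagcaggaaca
miR-103-3p shorter by 1 base: agcagcattgtacagggctatg
miR-103-3p exact: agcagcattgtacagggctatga
miR-103-3p with its last base replaced by T: agcagcattgtacagggctatgT
miR-16-5p exact: tagcagcacgtaaatattggcg
miR-16-5p longer by the next hairpin base: tagcagcacgtaaatattggcgT
The miR-24-3p tag with 1 added T, which does not match the next base of either hairpin, was its most abundant form, with 26355 reads or 49.5% of all its reads, and it was named for the hairpin. The exact form had 16022 reads and the form 1 base shorter 5148, both named mature. Forms with an added T held 49.8, 44.2 and 63.6% of miR-24-3p reads for Control, 49.1, 46.4 and 58.2% for LPS and 47.8, 58.4 and 47.0% for LPS+AS-IV.

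With the reads of all libraries pooled, the most abundant miR-103-3p tag was the one shorter by 1 base, with 3330 reads. The exact form had 1929 and the T-ended form 1814. Of the 3330 reads, 2788 came from LPS+AS-IV 3 alone. In each other library the exact or the T-ended form had more reads than the shorter tag. The shorter tag was named for the hairpin. By contrast, the miR-191a-5p tag shorter by 1 base, with 19355 reads, was named mature and entered the table. Exact miR-103-3p was at 0 in Control 1 and in LPS+AS-IV 2 and held 22.3% of its reads overall. Exact miR-16-5p had 16329 reads, and its form with the next hairpin base had 5372, or 22.5%, named for the hairpin. Exact miR-423-3p had 85416 reads, 74.8% of its total, and the form with 1 added T had 11804. Some forms were mainly in 1 library: of 1499 reads of a miR-16-5p tag whose 3′ end differs from the reference, 1493 were in LPS+AS-IV 3.

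**Figure D5:**
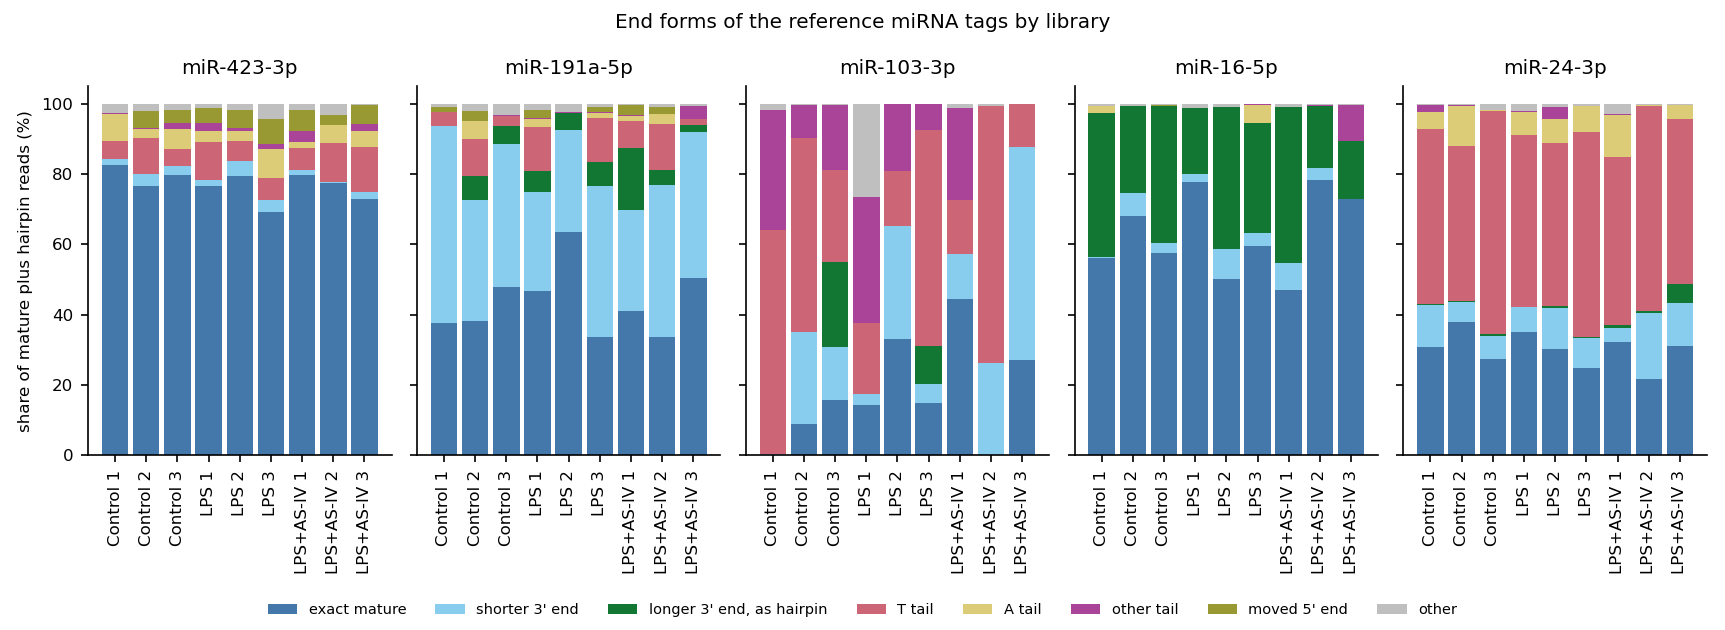
Share (%) of each reference miRNA's mature plus hairpin reads by 3′ and 5′ end form, with 1 bar per library. Forms with an added T hold 44.2 to 63.6% of miR-24-3p in each library, whereas the forms of miR-103-3p differ widely between libraries.

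The share of the exact form, of forms with an added T and of hairpin-named tags was compared between groups for each member. In these 45 comparisons none had non-overlapping groups, and the smallest exact two-sided permutation p was 0.2, with a smallest Benjamini-Hochberg adjusted p of 1. With 3 libraries against 3 such a test cannot go below 0.1. Over all end forms with reads, 110 comparisons in all, 6 or 5.45% did not overlap, which is given here with no test. Each of the 6 set LPS+AS-IV against another group. Forms of miR-16-5p with other tails held at least 0.275% there and at most 0.124% in the other groups, and those of miR-191a-5p at least 0.175% against at most 0.140%. The reads behind them were few outside LPS+AS-IV 3, with 1 for miR-16-5p and 2 for miR-191a-5p in LPS+AS-IV 1.

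Counting mature and hairpin tags together kept the order of the members by mean over all libraries, but not in each library. miR-24-3p was then above miR-191a-5p in Control 1 (29114 against 22884 CPM), LPS 2 (47843 against 34378) and LPS+AS-IV 3 (37717 against 31434). The ranges of miR-423-3p and miR-191a-5p also overlapped, with LPS+AS-IV 2 at 40776 CPM for the first and LPS+AS-IV 1 at 45316 CPM for the second. Mean levels were then 58611 ± 8555 CPM for Control, 92743 ± 22568 for LPS and 71034 ± 28056 for LPS+AS-IV for miR-423-3p (SD, n = 3), with Control and LPS no longer overlapping: the highest Control library was at 64536 CPM and the lowest LPS library at 68611 CPM. miR-24-3p moved up in rank from seventeenth to eighth, with means of 28471 ± 6328, 33028 ± 12888 and 29230 ± 10175 CPM. miR-103-3p was at 2639, 7270 and 9757 CPM for Control, 7479, 4588 and 8684 CPM for LPS and 9841, 1120 and 5249 CPM for LPS+AS-IV. The SD of its log2 level went from 4.05 to 1.04, with LPS+AS-IV 2 still the lowest library, and its highest library was 8.79-fold above that. For the other members the SD moved little, to 0.48 for miR-423-3p, 0.32 for miR-191a-5p, 0.35 for miR-16-5p and 0.43 for miR-24-3p. Ratios between members became steadier, with a mean log2 SD of 0.60 over the 10 pairs and 0.39 over the 6 without miR-103-3p. No member passed edgeR's test in this count, and miR-423-3p between LPS and Control was the only case of non-overlapping groups, where 18.6% of the 129 miRNAs tested in it did not overlap. The share was 8.53% between LPS+AS-IV and LPS and 11.6% between LPS+AS-IV and Control.

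The opposite arms of the hairpins were nearly absent from the table, where 2 of 7 had a row. The tag files showed miR-423-5p to be the exception. Its reference sequence and its most abundant tag are printed to show what set its count.
miR-423-5p: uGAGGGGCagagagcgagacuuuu
miR-423-5p tag: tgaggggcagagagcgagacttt
The tag, 1 base shorter than the reference, had 13473 reads and was named for the hairpin, while the table counted 755 reads of the full form. With mature and hairpin tags there were from 4.16 reads of miR-423-3p for each of miR-423-5p in LPS+AS-IV 2 to 39.2 in LPS 1. In the table, miR-423-5p was at 0 in Control 2, LPS 1 and LPS 3, and the ratio went up to 1039 in LPS+AS-IV 3. The other arms had few reads: 42 mature and 71 hairpin reads for miR-191a-3p, 42 hairpin reads for miR-24-2-5p and 0 for the others listed.

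Of the 7 miRNAs listed for their seeds or names, 4 were in the table and 1, miR-15b-5p, was tested. miR-15b-5p, which shares a locus and a seed with miR-16-5p, was at 1360, 2061 and 1344 CPM for Control, 5541, 4417 and 1507 CPM for LPS and 4111, 15.2 and 2859 CPM for LPS+AS-IV, and its log2 difference between LPS and Control was 1.27 (SE 1.42, edgeR adjusted p 0.964). None of the 6 genomic neighbours passed in any comparison. CPM did not overlap for 2 of the 6 between LPS+AS-IV and Control and for 0 in the other comparisons. miR-23a-3p, next to miR-24-3p on chromosome 19, was at 16429 ± 4112 CPM for Control, 9978 ± 2457 for LPS and 16361 ± 10906 for LPS+AS-IV (SD, n = 3). Of 16 other miRNAs used as references elsewhere, 14 were tested and none passed. Their median log2 difference was -0.18 between LPS and Control, 0.15 between LPS+AS-IV and LPS and 0.01 between LPS+AS-IV and Control. CPM did not overlap for 3, 3 and 0 of these 14 in the same order, beside 19.1, 7.45 and 10.6% of all tested miRNAs. Of all tested, 1.06, 0 and 2.13% passed.

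Scaling a library on the members in place of TMM would move all other levels. A factor from the 4 steadier members stood relative to TMM, in log2, at -0.30, -0.20 and -0.10 for Control, -0.03, 0.51 and -0.17 for LPS and 0.18, -0.27 and 0.37 for LPS+AS-IV. Its group means were -0.20 ± 0.10 (SD, n = 3), 0.11 ± 0.36 and 0.09 ± 0.32. Adding miR-103-3p brought the factor of LPS+AS-IV 2 to -1.78. With all 5 members as the scale, the median log2 difference of all tested miRNAs moved by -0.40 between LPS and Control, by 0.95 between LPS+AS-IV and LPS and by 0.45 between LPS+AS-IV and Control. RLE factors and library totals moved it by -0.19 to 0.10.

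The miRNA of the series title, miR-204-5p, was expressed per reads of each reference. By edgeR it did not pass between LPS and Control (log2 difference -3.18, SE 1.96, adjusted p 0.802) or between LPS+AS-IV and LPS (3.63, SE 1.997, adjusted p 0.963). It stood at 22.4, 19.7 and 9.49 reads per 1000 reads of miR-423-3p for Control, 0.881, 0.106 and 3.81 for LPS and 12.9, 36.8 and 13.7 for LPS+AS-IV. Per 1000 reads of miR-191a-5p the group means were 37.6 ± 19.7 (SD, n = 3), 3.09 ± 3.13 and 38.2 ± 15.8. Per 1000 of miR-16-5p they were 106 ± 35.98, 9.56 ± 9.43 and 111 ± 42.0, and per 1000 of miR-24-3p 77.0 ± 31.3, 11.52 ± 14.2 and 112 ± 82.1. LPS libraries lay below those of both other groups without overlap for each of the 5 references. For miR-103-3p this rests on 2 LPS+AS-IV libraries, since no ratio exists at 0 reads. Among single tested miRNAs, CPM did not overlap for 19.1% between LPS and Control and 7.45% between LPS+AS-IV and LPS. The ratios to the 5 references share the numerator and are not independent. That numerator was near the counting floor in LPS 1 and LPS 2. LPS 1 stood at 0.881 per 1000 against 3407 reads of miR-423-3p and LPS 2 at 0.106 against 9447. miR-204-5p thus had only a few reads in those libraries. LPS 3 stood at 3.81 per 1000 against 5251 reads.

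Smaller numbers of reads that hold a member's bases 2 to 17 were assigned to Rfam families, outside the miRNA counts. There were 2878 such reads for miR-423-3p, 2225 for miR-24-3p, 412 for miR-103-3p, 335 for miR-16-5p and 1 for miR-191a-5p. As a share of these and the mature plus hairpin reads together, they came within single libraries to at most 19.7% for miR-103-3p, 13.8% for miR-24-3p, 8.71% for miR-16-5p and 3.67% for miR-423-3p. For miR-103-3p the share was 15.8, 18.4 and 10.75% for Control, 0.59, 19.7 and 0.10% for LPS and 0, 0 and 0.17% for LPS+AS-IV. The part of these reads in its differences between groups was not tested.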

How the data were processed

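The submitters' processing notes name Bowtie2 and the rat build Rnor_6.0, without a role or a version. The deposited series table held raw counts of reads per mature miRNA, per the file headers, and a further count column (exp), whose making is not stated and which served only as an alternative. Exp came to 51.7 to 59.2% of the reads of the members in LPS+AS-IV 3 and 66.8 to 100% elsewhere. The deposited tag files held counts per tag with an assignment and a score, which per the file headers is a mismatch number or an Rfam score. The members, and the gene lists, were chosen with earlier results of these data known. Counts were fitted with edgeR 4.0.16 in R 4.3.3 (TMM, filterByExpr, 94 of 201 miRNAs tested, 1 fit of 9 libraries, adjusted p threshold 0.05); SEs come from the fold change and F. The common dispersion of the fit, its spread between libraries beyond counting, had a square root of 1.42. The fit was also run on simulated data, whose outcome is not given here. DESeq2 1.42.0, other scalings, filters, tag counts and left-out libraries were alternatives. Hairpin arms were taken from tag names. Sequences and positions are RefSeq's on GRCr8. Named miRNAs were the members, the 3 with the steadiest ratio to each, up to 4 of each list by reads, cell type markers and miR-204-5p, the miRNA of the series title. Shares in single libraries have 95% Wilson intervals: 7.68 to 8.19% for miR-423-3p in Control 1, for example, and 0.979 to 1.31% for miR-103-3p in LPS+AS-IV 1. These intervals cover counting error only and leave out the spread between libraries. The self-made tables used Python 3.11.15.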

Additional observations from a re-analysis of the deposited data

How the results depend on the processing

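Calls of members stayed at 0 in 60 of 63 alternative fits. The exceptions were the fits without LPS+AS-IV 1 and LPS+AS-IV 3, added after seeing the data, with 1 member called for LPS against Control, 2 for LPS+AS-IV against LPS and 1 for LPS+AS-IV against Control. Of 315 member log2 fold changes in these fits, 259 kept their sign and side of the threshold and 54 changed sign. There were 4 that gained a call, all in those added fits, and 2 of these were among the sign changes. Of the sign changes, 42 were for LPS+AS-IV against LPS; the cause was not tested.

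For LPS against Control, scaling each member on the others gave -0.11 for miR-191a-5p, -0.25 for miR-16-5p and -0.42 for miR-24-3p. For LPS+AS-IV against LPS, miR-191a-5p was -0.068 with RLE factors, -0.062 with library totals and -0.069 in DESeq2, and miR-423-3p was 0.58 when scaled on the members. In the order miR-191a-5p, miR-103-3p, miR-16-5p and miR-24-3p, this comparison gave -0.23, -0.018, -0.15 and -0.17 under the stricter filter, -0.22, -0.044, -0.23 and -0.12 with the exp column, -0.062, -0.36, -0.10 and -0.18 with mature plus hairpin tags, and -0.48, -10.83, -0.16 and -1.03 without LPS+AS-IV 1 and LPS+AS-IV 3. Counting a tag only for its main assignment gave -0.19 for miR-191a-5p, -0.11 for miR-16-5p and -0.14 for miR-24-3p. For LPS+AS-IV against Control, miR-103-3p was -0.28 with hairpin tags, and the fits without LPS+AS-IV 1 and LPS+AS-IV 3 gave -0.53 for miR-423-3p, -0.14 for miR-191a-5p, -10.26 for miR-103-3p and -0.83 for miR-24-3p.

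Leaving out 1 library at a time gave, for LPS against Control, -0.13 to 0.43 for miR-24-3p. For LPS+AS-IV against LPS it gave -0.21 to 0.14 for miR-191a-5p, -1.70 to 0.80 for miR-103-3p, -0.22 to 0.18 for miR-16-5p and -0.48 to 0.43 for miR-24-3p. For LPS+AS-IV against Control it gave -0.98 to 1.79 for miR-103-3p and -0.29 to 0.57 for miR-24-3p.

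Over all tested miRNAs, the count of calls for LPS against Control was 1, and 2 with library totals, scaling on the members, no filter, the stricter filter, the exp column or the replicate block, 3 in DESeq2, with the compared groups alone or without LPS+AS-IV 1 and LPS+AS-IV 3. It was 0 when a tag counted only for its main assignment, and 1 to 3 leaving out 1 library. For LPS+AS-IV against LPS it was 0, and 1 in DESeq2, without a filter or with the replicate block, 4 without LPS+AS-IV 1 and LPS+AS-IV 3, and 0 to 1 leaving out 1 library. For LPS+AS-IV against Control it was 2, and 0 when a tag counted only for its main assignment, 3 without LPS+AS-IV 1 and LPS+AS-IV 3, and 2 to 3 leaving out 1 library.

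Libraries that share a replicate number correlated at -0.085 to 0.17 in their deviations from group means, so the numbers were not taken as pairs. With the replicate block miR-103-3p was -0.87 for LPS+AS-IV against LPS and -0.22 for LPS+AS-IV against Control, and no member was called.

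The mean log2 ratio SD over pairs of members, 1.51, was 0.60 with mature plus hairpin tags, 0.49 without miR-103-3p (chosen after seeing the data) and 0.73 to 1.60 leaving out 1 library. As shares of all assigned reads, whose miRNA part differed between libraries, the log2 SDs were 1.60 for miR-423-3p, 1.63 for miR-191a-5p, 1.80 for miR-16-5p and 1.90 for miR-24-3p. Reads were fewest for miR-103-3p, with 74 and 37 in Control 1 and Control 2; its 0 in LPS+AS-IV 2 was in a library of 68845 table reads.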
